A study of Oryza sativa Japonica Group with 10 samples.

Results

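Among the genes that rice shoots expressed abundantly when well watered, 66 fell to less than 1/5 of their level under drought in both genotypes. They were chosen from the measured values. FPKM, the fragment count of a transcript divided by its length and by the depth of the library, so that genes of unequal length can be compared, was summed over the transcripts of each gene ID, and a gene was kept where its mean was at least 10 FPKM in both well-watered groups and its drought mean was below 1/5 of the well-watered mean in each genotype. The 66 genes are 0.606% of the 10885 gene IDs at or above 10 FPKM in both well-watered groups, of 55689 gene IDs in all. Since the fall under drought chose the genes, it is given below as a description only, and nothing is read from a test of it. The tests that are read compare the genotypes within a condition or concern genes outside the 66. The rule also used the group means that the genotype comparisons set against each other, so counts over the 66 are descriptions. Lists of genes outside the 66 were chosen with earlier results of these data known, so counts over those lists are descriptions too. The difference of the drought responses is built from the same falls and is given with that limit.

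RNA was sequenced from shoots of Zhonghua 11 (ZH11), a japonica rice used as the wild type, and of OsJAZ1-OE. The OsJAZ1-OE plants are transgenic ZH11 in which the jasmonate repressor gene OsJAZ1 is overexpressed from the drought-inducible OsLEA3-1 promoter. Plants were at the 4-leaf stage, and the groups were ZH11 normal (3 libraries), ZH11 drought (2), OsJAZ1-OE normal (3) and OsJAZ1-OE drought (2), drought being soil dried to 10 to 15% water. The sample titles name no OsJAZ1-OE line, and the paper, which selected independent lines, does not say which were sequenced. Effects of a line and of the transgene therefore cannot be told apart. The replicates are described as biological with no account of which plants or pots each came from, so that p values measure the spread between these libraries. The authors excluded a further drought library of each genotype for low correlation with the others, and those libraries were not analysed here. OsJAZ1 (LOC_Os04g55920) was at 110.2 to 147 FPKM in the ZH11 libraries and at 1177 to 1388 FPKM in the OsJAZ1-OE libraries, also when well watered. The deposited totals were 32396154 to 34027909 counts per library. Of the marker lists used to check the tissue, the 5 green leaf genes summed to 11011 to 11671 FPKM in ZH11 normal, 7817 to 8110.1 FPKM in ZH11 drought, 9206 to 10420.5 FPKM in OsJAZ1-OE normal and 7319.7 to 7865 FPKM in OsJAZ1-OE drought. They were thus lower under drought without overlap, and LOC_Os12g17600 among them kept 34.9% in ZH11 and 36.0% in OsJAZ1-OE. Of the 4 root genes LOC_Os03g01700 was at or near 0 throughout. Their sum was 5.58 to 5.84 FPKM in ZH11 normal and 11.0 to 12.9 FPKM in ZH11 drought, and 6.23 to 6.59 FPKM and then 7.95 to 9.35 FPKM in OsJAZ1-OE, most of it from LOC_Os02g51110, which rose in ZH11 (log2 1.09, SE 0.13, adjusted p = 7.8e-05 from edgeR). The part of such shifts in the fall of the 66 genes was not tested.

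A plant that runs short of water stops making new leaf tissue before its mature leaves die. Growing tissue copies its DNA and packs it with new histones, loosens and extends its cell walls, lays down cuticle over young epidermis and reads cytokinin, the hormone that keeps cells dividing, through a phosphorelay whose type-A response regulators are both its early targets and its brakes. Genes of each of these kinds are among the 66. So are 12 genes of metabolism, transport and defence and transcription genes that are no response regulators. For a further 20 the annotation used here gives no clear function. The paper's RNA methods speak of leaf samples, so that the part of the shoot taken is not certain. In RNA from such mixed tissue, fewer cells of a type and less RNA per cell cannot be told apart.

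Summed over the 66 genes, the level was 2937 to 4066 FPKM in the ZH11 normal libraries and 331 to 357 FPKM in the ZH11 drought libraries. In OsJAZ1-OE it was 3295 to 4076 FPKM when well watered and 404 to 521 FPKM under drought. The median gene kept 9.65% of its well-watered level in ZH11 (range 1.11 to 19.7%) and 12.6% in OsJAZ1-OE (range 0.788 to 19.8%). For 65 of the 66 genes every well-watered library of either genotype lay above every drought library, which held for 18.6% of the 24850 genes tested. The exception was LOC_Os12g38140, a gene with no function given, whose lowest well-watered value (3.82 FPKM, ZH11 normal replicate 1) lay below its highest drought value (4.22 FPKM, OsJAZ1-OE drought replicate 2), though within each genotype its groups did not overlap. All 66 passed the filter on low counts, and all 66 passed edgeR's test as lower under drought in both genotypes, where 9.03% of all genes tested did so in ZH11 and 6.62% in OsJAZ1-OE (5.33% and 4.36% passed as higher). From these counts nothing is read, since the same values chose the genes.

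**Figure D1:**
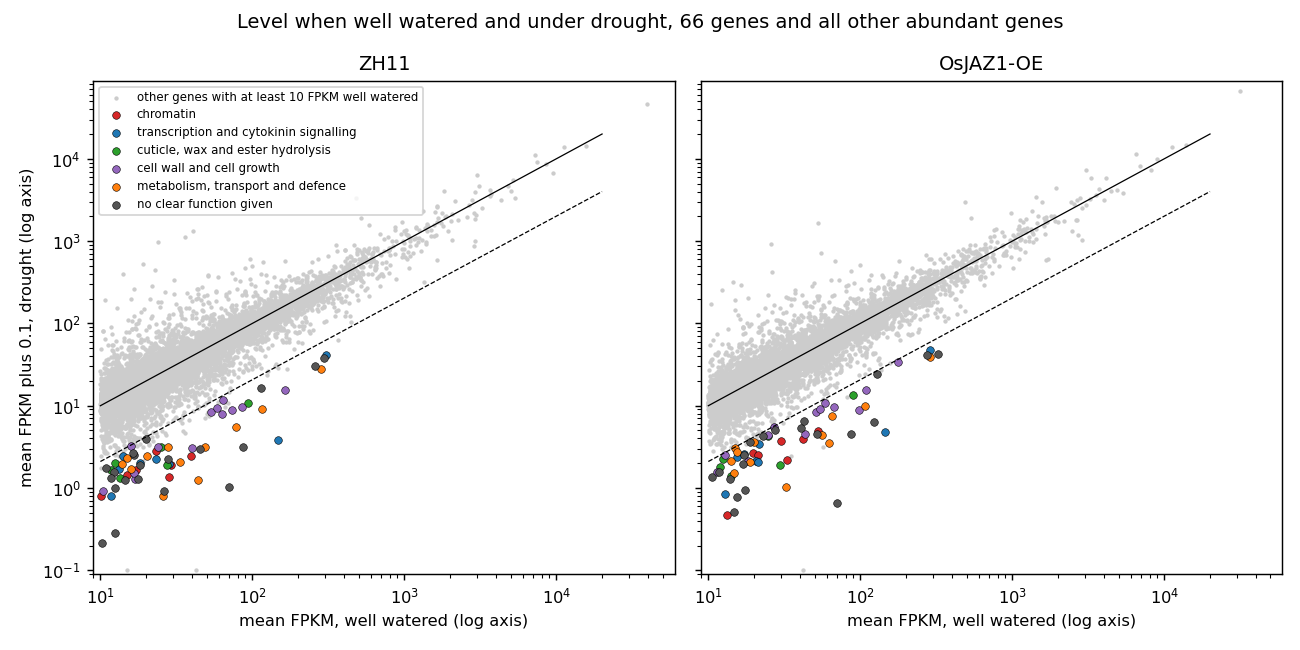
Mean FPKM when well watered (horizontal, log axis) against mean FPKM plus 0.1 under drought (vertical, log axis) for the 66 genes, coloured by role, and for all other genes with at least 10 FPKM in both well-watered groups (grey), in ZH11 (left) and OsJAZ1-OE (right). The solid line marks no change and the dashed line 1/5 of the well-watered level, below which the 66 genes lie in both panels.

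The fall was not of 1 size. Only 5 genes kept less than 5% of their level in both genotypes, and 20 kept less than 10% in both. Under drought 6 genes were below 1 FPKM in both genotypes, whereas 8 were still at or above 10 FPKM in both, because they had started high. The levels when well watered ran from just over the minimum of 10 FPKM to 303 FPKM in ZH11 and 326 FPKM in OsJAZ1-OE. In both well-watered groups 8 genes were at or above 100 FPKM, and 23 were below 20 FPKM. At the level limit, LOC_Os11g05730 (10.03 FPKM in ZH11 normal) and LOC_Os01g67110 (10.2 FPKM) were just inside, and LOC_Os02g40440 (9.78 FPKM in OsJAZ1-OE normal) and LOC_Os04g54240 (9.71 FPKM) just outside. At the fold limit, LOC_Os01g47700 with 19.8% left in OsJAZ1-OE and LOC_Os02g52040 with 19.7% left in ZH11 were just inside, and LOC_Os02g44108 and LOC_Os04g53950 with 20.03% and 20.2% left in OsJAZ1-OE just outside.

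Of the abundant genes, 108 fell below 1/5 in ZH11 and 77 in OsJAZ1-OE, so that 42 met the limit in ZH11 only and 11 in OsJAZ1-OE only. The 42 had a median of 26.7% left in OsJAZ1-OE and the 11 a median of 23.6% left in ZH11, with highest values of 281% and 309%, so that at least 1 gene of each was higher under drought in the other genotype. For comparison, 35 abundant genes were more than 5-fold higher under drought in both genotypes.

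The chromatin genes among the 66 were 7, all of core histones, the proteins around which DNA is wound. They were 4 histone H3 genes (LOC_Os05g36280, LOC_Os06g06510, LOC_Os06g06460 and LOC_Os11g05730), the H4 gene LOC_Os02g45940, and the H2A genes LOC_Os05g02300 and LOC_Os03g06670. The most abundant, LOC_Os05g36280, was at 24.2, 79.8 and 14.8 FPKM in the ZH11 normal libraries 1 to 3 and at 1.33 and 3.40 FPKM in the ZH11 drought libraries. In OsJAZ1-OE it was at 34.8, 38.8 and 83.5 FPKM when well watered and at 3.32 and 6.36 FPKM under drought. The highest drought value (6.36 FPKM) lay below the lowest well-watered one (14.8 FPKM), and the well-watered values themselves differed several-fold. The H4 gene LOC_Os02g45940 was at 21.9, 53.9 and 11.8 FPKM in ZH11 normal and at 1.74 and 1.82 FPKM in ZH11 drought, against 28.4, 31.4 and 65.5 FPKM and then 2.93 and 4.71 FPKM in OsJAZ1-OE. The lowest of the group, the H3 gene LOC_Os11g05730, went from a mean of 10.03 ± 8.40 FPKM (SD, n = 3) to 0.705 ± 0.543 FPKM (SD, n = 2) in ZH11. Across the 7 genes, 4.43 to 11.7% was left in ZH11 and 2.77 to 12.9% in OsJAZ1-OE. Some histone genes of 1 class are alike in sequence, and the sources used here do not say how the authors' counting divided fragments among such genes.

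Most histone transcripts of the shoot were from other genes. Of the histone H3 genes listed, 9 in all, 4 were not among the 66 and could be tested, and 2 of these fell in both genotypes. Here and below, a gene outside the 66 fell or rose under drought where edgeR's quasi-likelihood test gave a Benjamini-Hochberg adjusted p under 0.05 and the change reached 1 on the log2 scale. LOC_Os01g64640 went from a mean of 43.9 to 9.23 FPKM in ZH11, a log2 change of −2.34 (SE, standard error, 0.55, adjusted p = 0.0055 from edgeR). LOC_Os04g34240 went from 2.77 to 0.0884 FPKM (−4.83, SE 0.94, adjusted p = 0.0018 from edgeR). LOC_Os06g04030, the most abundant H3 gene, was at 1094 FPKM in ZH11 normal and 1088 FPKM in ZH11 drought (log2 fold change −0.07, SE 0.08, adjusted p = 0.48 from edgeR), and at 1037 and 1131 FPKM in OsJAZ1-OE (0.18, adjusted p = 0.10 from edgeR). The 9 H3 genes together summed to 2143 to 2349.7 FPKM in ZH11 normal and 1995 to 2122 FPKM in ZH11 drought, and in OsJAZ1-OE, where the groups overlapped, to 2109 to 2311 FPKM and 2013 to 2220.03 FPKM. Of the H4 genes, 1 of 7 tested outside the 66 was lower in ZH11, where 9.03% of all genes were, and 2 of 7 in OsJAZ1-OE, where 6.62% were. The former gene was LOC_Os04g49420, from 16.3 to 5.002 FPKM in ZH11 (log2 −1.43, SE 0.35, adjusted p = 0.0074 from edgeR). LOC_Os01g61920 and LOC_Os05g38640 had lower p values with smaller changes of −0.66 and −0.38, and LOC_Os09g38020, the most abundant H4 gene, went from 637 to 489 FPKM (−0.43). Of the H2A genes 2 of 9 were lower in ZH11 and 3 of 9 in OsJAZ1-OE, and of the H2B genes 1 of 9 in each, a share near that of all genes, the gene being LOC_Os08g38300, which went from 80.1 to 22.4 FPKM in ZH11 (log2 fold change −1.85, SE 0.37, adjusted p = 0.0023 from edgeR) and from 97.4 to 23.6 FPKM in OsJAZ1-OE. Among the H2A genes LOC_Os03g17100 went from 175 to 64.3 FPKM in ZH11 (log2 −1.49, SE 0.27, adjusted p = 0.0013 from edgeR), and LOC_Os03g53190 from 301 to 389.9 FPKM, a change of 0.38 (adjusted p = 4.3e-04 from edgeR). The most abundant, LOC_Os07g36130, was at 1676 and 1886 FPKM (0.12, adjusted p = 0.21 from edgeR). Of H2B, LOC_Os05g49860 went from 167 to 103 FPKM (−0.75), and LOC_Os01g06010 from 292 to 231 FPKM (−0.40). None of the histone genes listed rose past both limits. The median log2 fold changes of the histone genes tested outside the 66 were −1.20 in ZH11 and −1.13 in OsJAZ1-OE for H3, −0.50 and −0.46 for H4, −0.85 and −0.68 for H2A, and −0.40 and −0.32 for H2B, against 0.00 over all genes tested in each genotype.

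Transcription and cytokinin signalling took 8 of the 66 genes. Both type-A response regulators among them were almost free of spread. OsRR2 (LOC_Os02g35180) was at 11.9, 11.9 and 11.4 FPKM in ZH11 normal and at 0.636 and 0.745 FPKM in ZH11 drought. In OsJAZ1-OE it was at 11.8, 13.9 and 12.8 FPKM when well watered and at 0.755 and 0.726 FPKM under drought, which left 5.89% in ZH11 and 5.77% in OsJAZ1-OE. OsRR4 (LOC_Os01g72330) was at 17.2 to 19.5 FPKM in ZH11 normal and 18.6 to 22.2 FPKM in OsJAZ1-OE normal, and at 1.82 to 2.11 FPKM in the 4 drought libraries. Of 6 other type-A regulators tested, 4 were lower in ZH11 and the same count in OsJAZ1-OE, and none was higher. LOC_Os04g36070 went from 6.88 to 2.00 FPKM in ZH11 (log2 fold change −1.79, SE 0.13, adjusted p = 1.6e-06 from edgeR) and from 7.66 to 1.5004 FPKM in OsJAZ1-OE (−2.39, SE 0.13, adjusted p = 3.4e-07 from edgeR). LOC_Os11g04720 had log2 fold changes of −1.63 (SE 0.18) and −2.34 (SE 0.18). The regulator LOC_Os02g58350 had a log2 change of −0.01 in ZH11 (SE 0.09, adjusted p = 0.92 from edgeR), at 1.17 FPKM when well watered. LOC_Os11g04720 and LOC_Os12g04500, which was also lower in both genotypes, lie in the duplicated ends of chromosomes 11 and 12 and may share fragments.

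The most abundant genes of this role carry annotation terms for chromatin binding and gravitropism. LOC_Os05g50340 was at 363, 262 and 285 FPKM in ZH11 normal and at 36.9 and 44.7 FPKM in ZH11 drought, against 300.1, 305 and 251 FPKM and then 48.5 and 45.8 FPKM in OsJAZ1-OE. It thus kept 13.4% in ZH11 and 16.5% in OsJAZ1-OE and remained among the higher genes of the shoot. LOC_Os05g49240, with the same terms, fell further, from 135 to 168 FPKM in ZH11 normal to 4.38 and 3.01 FPKM, which left 2.52%, and from 110.3 to 165 FPKM in OsJAZ1-OE normal to 4.68 and 4.64 FPKM, which left 3.19%. LOC_Os08g10080, annotated with organ formation and meristem terms, was at 27.2, 30.4 and 27.6 FPKM in ZH11 normal and at 21.3, 22.8 and 19.6 FPKM in OsJAZ1-OE normal. The other 3 genes of this role had 9.38 to 16.5% left in ZH11 and 14.5 to 15.5% in OsJAZ1-OE.

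Cell wall and cell growth took 13 of the genes. LOC_Os01g14850, which codes for an MFS18 protein, was at 125, 289.7 and 80.7 FPKM in ZH11 normal and at 9.22 and 21.2 FPKM in ZH11 drought. In OsJAZ1-OE it was at 137, 148 and 248 FPKM and then at 19.1 and 47.8 FPKM, so that its libraries differed widely within every group. LOC_Os06g48160, a xyloglucan endotransglucosylase, an enzyme that cuts and rejoins the hemicellulose strands between cellulose fibres, was at 51.5, 88.2 and 49.1 FPKM in ZH11 normal and at 6.39 and 9.49 FPKM in ZH11 drought. In OsJAZ1-OE it was at 51.2, 70.7 and 80.0 FPKM and then at 6.46 and 12.6 FPKM. Of 7 other genes of that enzyme family tested, 5 were lower in each genotype and none was higher, with median log2 fold changes of −1.54 and −1.29. Among them LOC_Os08g13920 went from 122 to 39.6 FPKM in ZH11 (log2 fold change −1.68, SE 0.13, adjusted p = 3.7e-06 from edgeR), and LOC_Os06g48180 from 12.7 to 4.73 FPKM (−1.54, SE 0.18, adjusted p = 6.3e-05 from edgeR). LOC_Os06g48200 was at 106 FPKM and then 97.6 FPKM (log2 fold change −0.18, SE 0.12, adjusted p = 0.27 from edgeR).

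LOC_Os11g01330 and LOC_Os12g01360, both with cell morphogenesis terms, had 16.1 to 18.2% left and the narrowest spread of the role. LOC_Os11g01330 was at 57.7 to 65.4 FPKM in the 6 well-watered libraries and at 10.3 to 12.7 FPKM in the 4 drought libraries, and LOC_Os12g01360 at 52.1 to 59.1 FPKM and 8.85 to 9.52 FPKM. They lie in the duplicated chromosome ends too, so fragments may be split between them and they may not be separate measurements. LOC_Os11g29720, a haem monooxygenase with organ growth terms, was at 79.2 to 105 FPKM when well watered and at 8.09 to 10.3 FPKM under drought. The peroxidase LOC_Os01g47700 had the shares that lay farthest apart in percentage points, 7.07% left in ZH11 and 19.8% in OsJAZ1-OE, but under drought its libraries were at 1.73 and 0.663 FPKM in ZH11 and at 2.98 and 7.71 FPKM in OsJAZ1-OE, and the difference of its responses did not pass (log2 1.38, SE 0.75, unadjusted p = 0.093, adjusted p = 0.66 from edgeR). The remaining 7 genes of the role, among them LOC_Os02g18410 with microtubule binding terms, the peroxidase LOC_Os06g48030 and LOC_Os07g02810 with terms for copper binding and cell tip growth, were at 10.9 to 90.8 FPKM as the average of both genotypes' well-watered means.

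The 6 genes of cuticle, wax and ester hydrolysis include LOC_Os09g39410, a fatty acyl-CoA reductase, an enzyme that makes fatty alcohols, and LOC_Os05g44200 and LOC_Os01g52770, with cutinase terms. LOC_Os09g39410 was at 20.7, 31.8 and 22.0 FPKM in ZH11 normal and at 2.82 and 3.34 FPKM in ZH11 drought, against 20.1, 29.1 and 24.8 FPKM and then 3.69 and 4.68 FPKM in OsJAZ1-OE. LOC_Os05g44200 kept 6.52% in ZH11 and 6.08% in OsJAZ1-OE, the least of the role. The most abundant, the ester hydrolase LOC_Os02g57110, was at 55.8 to 134 FPKM in ZH11 normal, 86.8 to 92.7 FPKM in OsJAZ1-OE normal and 9.61 to 14.6 FPKM under drought. All 6 were highest in replicate 2 of ZH11 normal. Of 6 listed epidermal regulators of the HD-Zip IV class, none of which is among the 66, none was lower past both limits in either genotype, and LOC_Os04g48070 rose from 1.28 to 5.38 FPKM in ZH11 (log2 fold change 2.12, SE 0.10, adjusted p = 8.5e-08 from edgeR).

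Metabolism, transport and defence took 12 genes. The germin-like gene LOC_Os08g35760, annotated with oxalate oxidase and manganese terms, was at 323, 276 and 253 FPKM in ZH11 normal and at 28.0 and 28.3 FPKM in ZH11 drought, and in OsJAZ1-OE at 187, 418 and 252 FPKM and then at 31.8 and 46.7 FPKM. The terpene synthase LOC_Os08g04500, which makes volatile terpenes, was at 82.0, 77.3 and 75.7 FPKM in ZH11 normal and at 5.28 and 5.48 FPKM in ZH11 drought, and in OsJAZ1-OE at 73.0, 61.2 and 62.3 FPKM and then at 7.98 and 6.96 FPKM. It alone held nearly all of the level of its listed family, whose 4 other measured members were together below 3 FPKM when well watered. The thiol S-methyltransferase LOC_Os03g62670 was at 96.2 to 124 FPKM in the well-watered libraries and at 8.68 to 10.8 FPKM under drought.

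Deeper falls were those of LOC_Os10g36160, with peptidase terms, which went from 27.1 to 74.8 FPKM in the well-watered libraries to 0.952 to 4.11 FPKM, and of LOC_Os02g13660, with transporter terms, which went from 10.53 to 50.6 FPKM to 0.547 to 1.26 FPKM and kept 2.68% in ZH11 and 2.85% in OsJAZ1-OE. LOC_Os02g53130, a nitrate reductase, the enzyme that turns nitrate into nitrite, was at 18.3, 17.01 and 25.2 FPKM in ZH11 normal and at 3.31 and 1.33 FPKM in ZH11 drought, and in OsJAZ1-OE at 21.9, 19.3 and 18.7 FPKM and then at 3.83 and 3.26 FPKM. Of 5 other genes of nitrate uptake and reduction tested, 2 were lower and 1 higher in each genotype. Among these 5, LOC_Os02g52730 was near 0 in ZH11, with means of 0.0844 FPKM when well watered and 0.0414 FPKM under drought. In OsJAZ1-OE its means were 14.6 and 8.88 FPKM, so that its ZH11 test says little. The abundant one, LOC_Os01g25484, went from 226 to 107 FPKM in ZH11 (log2 fold change −1.14, SE 0.10, adjusted p = 1.0e-05 from edgeR), while LOC_Os10g40600 rose from 11.2 to 24.7 FPKM (1.07, SE 0.16, adjusted p = 2.9e-04 from edgeR). The other nitrate reductase with high counts, LOC_Os08g36480, went from 41.7 to 21.9 FPKM in ZH11, a change that missed the limit of 1 in log2 (−0.997, adjusted p = 2.8e-04 from edgeR), and from 33.1 to 23.9 FPKM in OsJAZ1-OE (−0.52, adjusted p = 0.015 from edgeR).

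Over the lists named so far and those of the nicotianamine synthases and the YABBY factors, 64 genes outside the 66 were tested. In ZH11 21 were lower and 2 higher, beside 9.03% and 5.33% of all genes tested, and in OsJAZ1-OE 22 were lower and 2 higher, beside 6.62% and 4.36%. The lists were chosen with earlier results of these data known, so these counts describe the lists and are no independent sign of a fall. Of the 3 nicotianamine synthases, which make the metal chelator nicotianamine, 2 were lower in OsJAZ1-OE (LOC_Os03g19427, log2 fold change −3.48, SE 0.53, and LOC_Os03g19420, −3.45, SE 0.46) and none passed in ZH11, where the values were −0.38 and −0.46. The difference of the drought responses did not pass for either (−3.11, SE 0.69, adjusted p = 0.27, and −2.99, SE 0.60, adjusted p = 0.22, from edgeR). These 2 genes are neighbours on chromosome 3 and may share fragments. Of the 5 YABBY genes tested, leaf polarity factors, 2 were lower in ZH11 and 1 in OsJAZ1-OE. LOC_Os07g06620 went from 6.68 to 2.82 FPKM in ZH11 (log2 −1.25, SE 0.14, adjusted p = 4.4e-05 from edgeR), LOC_Os12g42610 from 5.11 to 3.07 FPKM (−0.73), and the most abundant, LOC_Os03g44710, from 14.3 to 10.03 FPKM (−0.49). No gene of these 2 families is among the 66. Among the terpene synthases outside the 66, LOC_Os08g07100 and LOC_Os02g02930 were lower in ZH11, at under 2 FPKM when well watered, and none passed in OsJAZ1-OE. For neither did the difference of the drought responses pass (adjusted p = 0.22 and 0.27 from edgeR).

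**Figure D2:**
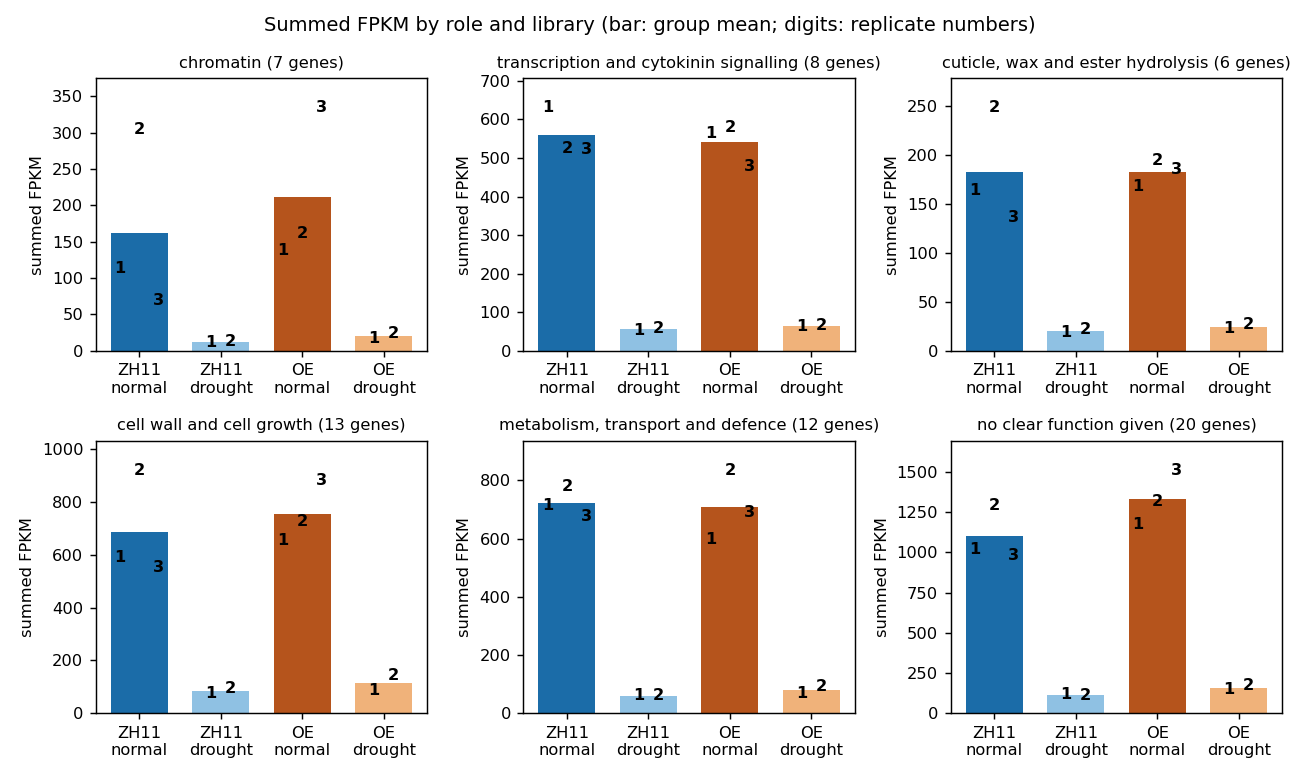
Summed FPKM (vertical axis, from 0) of the genes of each role in the 4 groups (OE stands for OsJAZ1-OE); bars are group means and the digits mark the value of each replicate. The 7 histone genes sum to 304 FPKM in replicate 2 of ZH11 normal and 334 FPKM in replicate 3 of OsJAZ1-OE normal and to at most 161 FPKM in the other well-watered libraries, whereas the 8 genes of transcription and cytokinin signalling sum to 478 to 631 FPKM in all 6.

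In the annotation used here 20 of the 66 genes have no clear function, and 6 of these lie near each other on chromosome 10, each within 6 annotated genes of the next. The run spans 90920 bases, from 2941801 to 3032720 in the coordinates of the files, for which the sources used here name no genome build, and holds 16 annotated genes. The run's members are LOC_Os10g05820, LOC_Os10g05860, LOC_Os10g05930, LOC_Os10g05950, LOC_Os10g05990 and LOC_Os10g06000. Of the 10 genes between them, 6 were below 1 FPKM in all groups, 3 of these at 0 in every library, and only LOC_Os10g05970 and LOC_Os10g05980 were abundant. Both of those fell as well but kept more than 1/5. LOC_Os10g05970 went from a mean of 448 to 105 FPKM in ZH11 (log2 fold change −2.12, SE 0.23, adjusted p = 3.6e-05 from edgeR) and from 491 to 142 FPKM in OsJAZ1-OE (−1.78, SE 0.23), and LOC_Os10g05980 from 406 to 123 FPKM and from 434 to 131 FPKM (−1.78, SE 0.23, and −1.71, SE 0.22). The rule fixed the fall of the 6 members and not that of these. LOC_Os10g05940, also within the run, was at 5.13 to 7.61 FPKM in the well-watered libraries and at 5.96 to 9.65 FPKM under drought. LOC_Os10g05840 went from a mean of 3.60 to 0.437 FPKM in ZH11 and from 6.59 to 2.54 FPKM in OsJAZ1-OE, where its drought libraries were at 0.588 and 4.49 FPKM.

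The run's genes fell to unequal depths. LOC_Os10g06000, the most abundant of the 66 genes by the average of both genotypes, was at 259, 368 and 267 FPKM in ZH11 normal and at 35.8 and 40.3 FPKM in ZH11 drought, and in OsJAZ1-OE at 291, 371 and 315 FPKM and then at 36.7 and 48.0 FPKM. LOC_Os10g05990, its neighbour, was at 226 to 318 FPKM in the well-watered libraries and at 29.7 to 45.7 FPKM under drought. LOC_Os10g05950 had the largest fall of the 66 by the mean of both genotypes. It was at 61.8, 94.1 and 55.8 FPKM in ZH11 normal and at 0.609 and 1.27 FPKM in ZH11 drought, and at 56.7, 78.0 and 76.2 FPKM and then 0.374 and 0.733 FPKM in OsJAZ1-OE, which left 1.33% and 0.788%. LOC_Os10g05820, LOC_Os10g05860 and LOC_Os10g05930 had higher means in OsJAZ1-OE in both conditions. LOC_Os10g05820 was at 17.5, 26.9 and 8.82 FPKM in ZH11 normal and at 40.8, 35.9 and 46.3 FPKM in OsJAZ1-OE normal, without overlap, and at 0.776 and 1.58 FPKM against 2.08 and 8.52 FPKM under drought. LOC_Os10g05930 was at 25.2, 37.4 and 15.5 FPKM against 42.4, 52.9 and 59.8 FPKM, and at 0.756 and 0.868 FPKM against 2.02 and 6.94 FPKM. Neither difference passed the test over all genes in either condition (adjusted p = 0.17 for both when well watered, and 0.16 and 0.10 under drought, from edgeR). With no filter on low counts both genes passed in both conditions, and DESeq2 called LOC_Os10g05930 under drought. Whether genes of the run share sequence, and so fragments, was not tested.

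**Figure D3:**
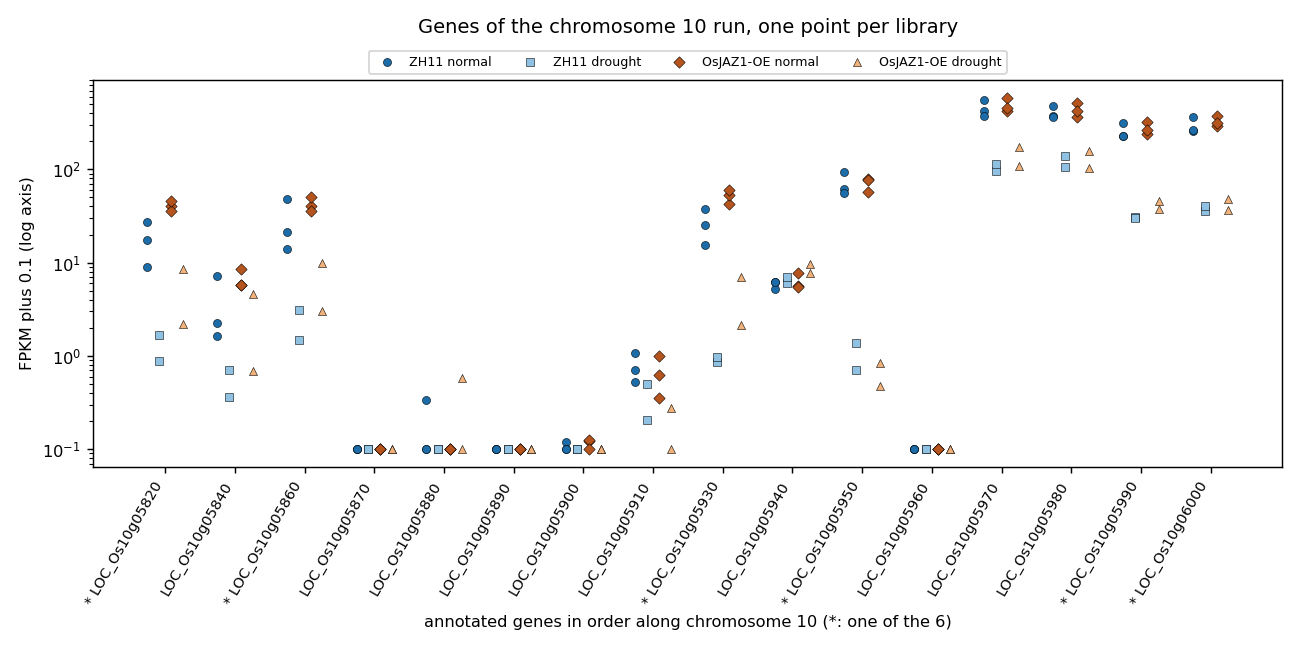
FPKM plus 0.1 (vertical, log axis) of each library for the 16 annotated genes from LOC_Os10g05820 to LOC_Os10g06000, in their order along chromosome 10, with asterisks on the 6 genes of the set. The drought libraries lie below the well-watered ones at the 6 genes and at LOC_Os10g05970 and LOC_Os10g05980, and not at LOC_Os10g05940. At LOC_Os10g05840 they do so only within each genotype.

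Chromosome 10 held 9 of the 66 genes (13.6%), and 5.02% of all abundant genes. The only other pair within 10 annotated genes of each other was that of the histone H3 genes LOC_Os06g06460 and LOC_Os06g06510 on chromosome 6. Further genes without a function given include LOC_Os03g20330 at 87.1 to 181 FPKM in the well-watered libraries and 12.9 to 29.1 FPKM under drought, and LOC_Os01g45914 at 49.0 to 188 FPKM and 1.89 to 6.56 FPKM. LOC_Os01g67110 and LOC_Os04g41900 were at 0 in ZH11 drought replicate 2, which allows up to 3 fragments, counting error only. LOC_Os01g67110 was at 0.227 FPKM in the other ZH11 drought library, 0.111 and 0.715 FPKM in OsJAZ1-OE drought and 5.38 to 23.2 FPKM when well watered. LOC_Os04g41900 was at 0.364 FPKM, 0.614 and 0.734 FPKM, and 7.46 to 24.8 FPKM, respectively. For these genes a drought value rests on few fragments, so that 1.11% and 1.47% left in ZH11 are not told apart from each other at this depth.

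The 66 genes were short and simply annotated. Their longest transcript had a median of 1033 bases (quartiles 852.5 and 1696), against 1824 bases (1253 and 2607) for all abundant genes, and 46 of the 66 (69.7%) had a single transcript in the files, against 36.8%. These are descriptions with no test. In the 20 genes with several transcripts, the leading transcript when well watered was also the leading one under drought in all 20, and of their 40 transcripts at 1 FPKM or more when well watered 35 were below 1/5 of that level under drought.

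The 66 genes varied among the well-watered libraries, which was noticed after the values were seen. The rule used the means of these same libraries, and 16 of the genes were below 10 FPKM in at least 1 of them, so a gene high in 1 library could enter through it, and the values below are a description only. The ratio of the highest to the lowest of the 6 well-watered libraries had a median of 1.86 over the 66 genes, against 1.19 over all abundant genes, and exceeded 3 for 21 genes (31.8%), against 1.00% of abundant genes. It was below 1.5 for 15 genes. The variable genes were mostly high in the same libraries. Replicate 2 was the highest of the ZH11 normal libraries for 46 of the 66 genes (69.7%, against 36.5% of abundant genes), and replicate 3 the highest of the OsJAZ1-OE normal libraries for 36 (54.5%, against 32.7%). Both held for 32 genes (48.5%, against 16.3%).

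The roles differed in this. All 7 histone genes were highest in both of these libraries, by 2.71 to 4.09 times the mean of the other ZH11 normal libraries and by 1.89 to 2.76 times the mean of the other OsJAZ1-OE normal libraries. The median ratios were 1.499 and 1.23 for the 13 cell wall and growth genes and 1.56 and 1.01 for the 6 cuticle genes. They were 1.07 and 1.02 for the 8 genes of transcription and cytokinin signalling, and 1.02 and 1.01 for the 12 of metabolism, transport and defence, with exceptions such as LOC_Os02g13660 (16.7, 50.6 and 10.53 FPKM in ZH11 normal). Genes with no function given were spread over the whole range, with LOC_Os12g38140 (3.82, 20.2 and 11.4 FPKM in ZH11 normal, and 6.40, 13.2 and 31.9 FPKM in OsJAZ1-OE normal) at the variable end and LOC_Os02g39510 (11.3 to 12.8 FPKM in all 6) at the steady end. LOC_Os01g45914 (84.7, 49.0 and 126 FPKM, and 89.1, 91.0 and 188 FPKM) was instead lowest in replicate 2 of ZH11 normal.

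Among the well-watered libraries, markers of dividing cells were highest where the histone genes were. All 6 measured markers were highest in replicate 2 of ZH11 normal and in replicate 3 of OsJAZ1-OE normal, and their sums, most of which came from LOC_Os02g56130, were 32.1 and 38.1 FPKM there, 20.5 to 26.3 FPKM in the other well-watered libraries and 16.2 to 19.3 FPKM under drought. In each genotype 4 of the 6 were lower under drought and the others did not pass, so that the list as a whole did not fall as the histone genes of the 66 did. The mitotic kinase gene LOC_Os08g40170 was at 1.99, 5.70 and 1.84 FPKM in ZH11 normal, at 3.88, 4.65 and 7.71 FPKM in OsJAZ1-OE normal and at 0.126 to 0.680 FPKM under drought. The shoot meristem markers LOC_Os03g51690 and LOC_Os07g03770 were at or near 0 in all libraries, and the sum of the green leaf markers was 11011 FPKM in replicate 2 of ZH11 normal (11450 and 11671 FPKM in the others) and 9206 FPKM in replicate 3 of OsJAZ1-OE normal (10139 and 10420.5 FPKM in the others). The part of dividing cells in these values was not tested. Without both high libraries 55 genes met the rule, of which 52 are among the 66.

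**Figure D4:**
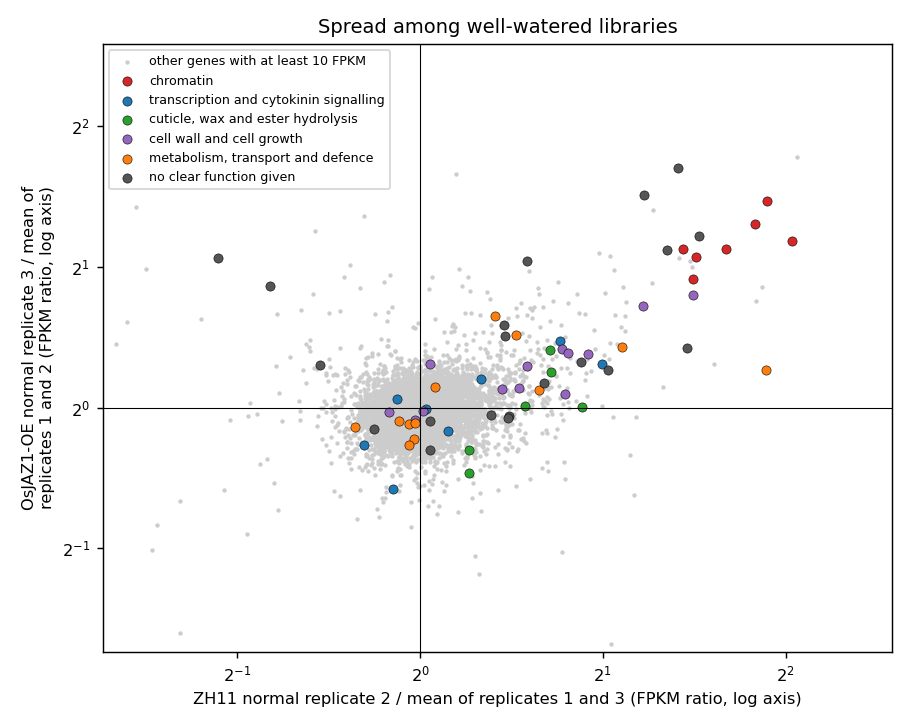
FPKM of ZH11 normal replicate 2 over the mean of replicates 1 and 3 (horizontal, log axis) against FPKM of OsJAZ1-OE normal replicate 3 over the mean of replicates 1 and 2 (vertical, log axis), for the 66 genes by role and for the other abundant genes (grey), of which 15 lie outside the range drawn. The 7 histone genes lie at the upper right, while most genes of transcription and cytokinin signalling and of metabolism, transport and defence lie within the grey cloud.

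The comparison of OsJAZ1-OE with ZH11 asks whether these genes differed between the OsJAZ1-OE and ZH11 plants within a condition. When well watered, 2 of the 66 genes differed at an adjusted p under 0.05 (3.03%), against 3.83% of all genes tested, by edgeR's quasi-likelihood test. Both were lower in OsJAZ1-OE (over all genes 1.48% were lower and 2.35% higher). LOC_Os03g14654, with carbohydrate binding terms, was at 22.9, 34.8 and 42.8 FPKM in ZH11 normal and at 10.48, 16.9 and 15.1 FPKM in OsJAZ1-OE normal, without overlap. The log2 fold change was −1.28 (SE 0.22, adjusted p = 0.0086 from edgeR), and the adjusted p ran from 2.4e-06 to 0.089 over the alternatives, the highest without both high libraries. LOC_Os08g10080, whose values are given above, had a log2 change of −0.47 (SE 0.09, adjusted p = 0.015 from edgeR), a call that ended without ZH11 normal replicate 3 (adjusted p = 0.054) and without OsJAZ1-OE normal replicate 1 (0.052) or 3 (0.088), and was also lost without both high libraries (0.18) and in limma-trend on log2 FPKM plus 0.1 (0.092) or plus 1 (0.051). Over its alternatives the adjusted p ran from 6.6e-04 to 0.18. At an unadjusted p under 0.05 there were 10 of the 66 and 4260 of 24850 genes. The median log2 difference over the 66 was 0.09, against 0.00 over all genes, and 42 of 66 values were above 0 (63.6%, against 50.7% of all genes tested). Every OsJAZ1-OE normal library lay above every ZH11 normal library for 4 of the genes (11.6% of all genes tested did so) and below for 6 (11.1%).

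Under drought the remaining level of most of the 66 genes was higher in OsJAZ1-OE, though few of these differences passed the test. The rule used these drought means, and the genes share the same drought libraries, so counts over the 66 are a description only. Summed over the 66, OsJAZ1-OE drought replicates 1 and 2 were at 404 and 521 FPKM, against 331 and 357 FPKM in ZH11 drought. The median log2 difference was 0.44, against 0.01 over all genes tested. Of 66 values 51 were above 0 (77.3%, against 51.2% of all genes tested). Every OsJAZ1-OE drought library was above every ZH11 drought library for 27 genes, against 23.8% of all genes tested, and below for 1, against 21.9%. Only 2 of the 66 passed the test (3.68% of all genes did, 2.55% as higher and 1.13% as lower). LOC_Os02g21009, with calcium transport terms, was at 1.72 and 1.99 FPKM in ZH11 drought and at 2.72 and 3.14 FPKM in OsJAZ1-OE drought, a log2 change of 0.63 (SE 0.13, adjusted p = 0.028 from edgeR), with 13.2 to 15.3 FPKM in the 6 well-watered libraries. The terpene synthase LOC_Os08g04500 had a log2 change of 0.48 (SE 0.11, adjusted p = 0.041 from edgeR). At an unadjusted p under 0.05 there were 7 of the 66 and 4651 of 24850 genes.

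With 2 drought libraries in each genotype these calls were not steady. None of the 66 passed without OsJAZ1-OE drought replicate 2 or in a fit of the drought libraries alone, and the adjusted p over the alternatives ran from 0.0042 to 0.19 for LOC_Os02g21009 and from 0.0029 to 0.23 for LOC_Os08g04500. The drought libraries also differed within OsJAZ1-OE, since 49 of the 66 genes were lower in replicate 1 than in replicate 2 with a median ratio of 0.795, against 1.00 over all abundant genes. In ZH11 39 of the 66 were lower in replicate 1, with a median ratio of 0.92, against 1.00. By role, the median log2 difference under drought was 0.86 for the histones (6 of 7 above 0), 0.56 for genes with no function given (15 of 20), 0.49 for cell wall and growth (8 of 13), 0.43 for metabolism, transport and defence (10 of 12), 0.19 for transcription and cytokinin signalling (7 of 8) and 0.10 for cuticle, wax and ester hydrolysis (5 of 6). Over all genes tested 51.2% were above 0.

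The difference of the drought responses compares the fall in OsJAZ1-OE with that in ZH11. None of the 66 genes passed, and none of the 24850 genes tested did (0%), while 6 of the 66 and 2097 of all genes had an unadjusted p under 0.05. DESeq2 called 1 of the 66, LOC_Os08g04500, and 105 genes in all. The difference was above 0, a smaller fall in OsJAZ1-OE, for 54 of the 66 genes (81.8%, against 51.5% of all genes tested), with a median of 0.32 in log2, against 0.01. The comparison shares its 4 groups with those above and with the rule, which set a limit on each fall, and adds no independent sign of that direction. LOC_Os08g04500 had the lowest p of the 66, with a difference of 0.74 (SE 0.14, unadjusted p = 2.0e-04, adjusted p = 0.19 from edgeR). Its level was lower in OsJAZ1-OE when well watered (log2 −0.27, SE 0.08, adjusted p = 0.094 from edgeR) and higher under drought, and its OsJAZ1-OE libraries lay below all ZH11 libraries in the first condition and above all of them in the second. LOC_Os03g14654 had a difference of 1.40 (SE 0.46, adjusted p = 0.46 from edgeR), next to its lower level when well watered, and under drought it was at 2.11 and 1.78 FPKM in ZH11 and at 1.57 and 2.53 FPKM in OsJAZ1-OE. LOC_Os08g35760 had a difference of 1.06 (SE 0.38, adjusted p = 0.48 from edgeR). By FPKM it kept 9.91% in ZH11 and 13.8% in OsJAZ1-OE, a smaller gap than the summed counts gave, and the cause was not tested. LOC_Os11g29720, the haem monooxygenase, was the gene with an unadjusted p under 0.05 in the other direction (−0.32, SE 0.14, adjusted p = 0.58 from edgeR).

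**Figure D5:**
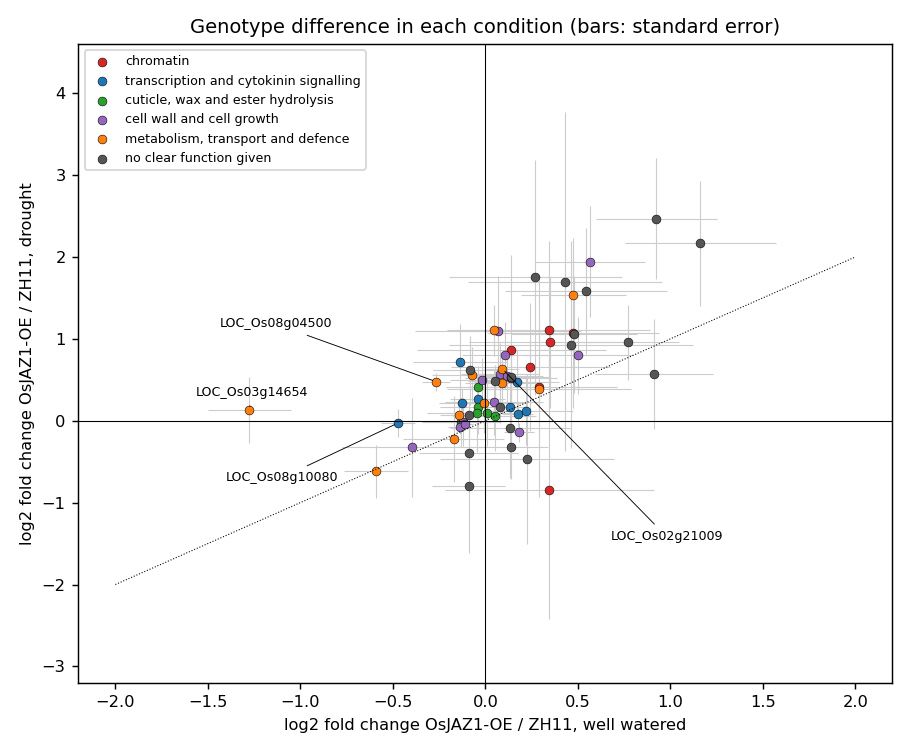
Log2 fold change of OsJAZ1-OE over ZH11 when well watered (horizontal) and under drought (vertical) for the 66 genes, coloured by role, with standard errors as bars and equality as the dotted line. Most points lie above the horizontal zero line (51 of 66, or 77.3%, against 51.2% of all genes tested), and the 4 named genes are those that passed the test in 1 of the conditions.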

How the data were processed

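The authors sequenced paired-end RNA-seq libraries and quantified them on the BMKCloud platform. Of tools, the submitters' processing notes list TopHat2, Picard, SAMtools 0.1.18 and GATK, with no roles. Those sources name neither the quantifier nor the genome build. The expected counts, as deposited, are estimated fragments per transcript that appear multiplied by 1 factor per library (0.884 to 1.19), and the deposited FPKM values are the authors' scaling by length and depth. The third drought replicate of each genotype was not analysed here. Both columns were summed over the 101273 transcripts of 55689 gene IDs. Rounded counts were tested with edgeR 4.0.16 (R 4.3.3; TMM, filterByExpr, quasi-likelihood, 1 mean per group over all 10 libraries, 24850 genes), with Benjamini-Hochberg adjustment over all genes. A call needs an adjusted p under 0.05, and for drought contrasts of listed genes also a log2 fold change of 1. The test was also run on simulated counts, with the same spread set for every gene, unlike the data.

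Members and lists were chosen with earlier results of these data known. Named genes are the 10 most abundant, the 10 with the lowest share left, those in a list, in a run of neighbours (next member within 10 genes), passing a genotype test or at a limit, and of most lists the 2 lowest adjusted p values outside the members and the most expressed gene not passing. Other listed genes and those that follow were named after their values were seen. LOC_Os12g38140, LOC_Os02g39510, LOC_Os03g62670, LOC_Os11g01330, LOC_Os12g01360, LOC_Os09g39410, LOC_Os05g44200, LOC_Os01g52770, LOC_Os02g57110, LOC_Os10g36160, LOC_Os02g18410, LOC_Os06g48030, LOC_Os07g02810, LOC_Os10g05840 and LOC_Os10g05940 are among them. Roles follow the study's annotation tables. Alternatives were DESeq2 1.42.0, limma-trend 3.58.1 on log2 FPKM plus 0.1 or 1, RLE, other filters, other fits and each library left out.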

Additional observations from a re-analysis of the deposited data

How the results depend on the processing

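Between 57 and 71 genes met the rule with 1 library left out, 55 without both high well-watered libraries (an alternative chosen after seeing the data), 78 with TPM, 64 with FPKM divided by TMM factors, 98 with a limit of 1/4 and 92 at 5 FPKM. The count was 20 with a limit of 1/10, 35 with a minimum of 20 FPKM, and 32 where every drought library had to lie below 1/5 of the lowest well-watered library of its genotype. The count of genes passing between the genotypes when well watered (2) was 1 with a fold limit, 0 with limma-trend and a pseudocount of 0.1, 1 with a pseudocount of 1, 6 with no filter, 0 without both high libraries, and 1 to 3 with 1 library left out. Under drought (2) it was 0 with a fold limit, 4 with DESeq2, 1 with limma-trend and a pseudocount of 1, 5 with no filter, 0 with only the groups compared, 1 without both high libraries, and 0 to 3 with 1 library left out. For the difference of the responses (0) it was 1 with DESeq2 and 1 with no filter, LOC_Os08g04500 in both, and 0 with each library left out; a fit of only the groups compared does not exist for it, since it uses all 4 groups. The listed genes outside the set that passed under drought were 23 in ZH11 and 24 in OsJAZ1-OE, 40 and 42 with no fold limit, and 21 to 27 and 15 to 25 with 1 library left out, the lowest without OsJAZ1-OE drought replicate 1. For the 4 genes that passed a genotype test, recomputed one by one, no call reversed. Values that had not passed turned sign under drought for LOC_Os03g14654 (0.13, range −0.18 to 0.39) and LOC_Os08g10080 (−0.03, range −0.23 to 0.20). Other single genes were not followed. The cause of these changes was not tested.

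Same-numbered libraries of different groups deviated together by correlations of −0.18 to 0.32. Libraries of unlike number were not compared in this way, so these values cannot tell whether the replicate numbers pair the libraries. With the replicate number as a block, 4 genes passed when well watered, 3 under drought and 0 for the difference of the responses, and 23 and 22 of the listed genes passed under drought.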
